A study of Mus musculus with 12 samples.

Results

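The comparison set 2 libraries of Treg labelled Dcaf1-deficient against 2 of young wild-type Treg, chosen by sample title from the 12 libraries of the series. Regulatory T cells (Treg) are CD4 T cells that hold the transcription factor Foxp3 and the interleukin-2 receptor chain CD25 and restrain other immune cells. Dcaf1, also called Vprbp, is a substrate receptor of the CUL4-DDB1 ubiquitin ligase, which marks chosen proteins for degradation, and it is known for roles in cell growth and the cell cycle. Cdkn1a encodes p21, an inhibitor of cyclin-dependent kinases and a classical target of p53.

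Both groups came from C57BL/6 mice of 2 months, and CD4+CD25+ cells were sorted from spleen. The young group was wild type; the other carried the label Dcaf1-deficient, and the allele, any driver of the deletion and the number of animals per library are not given in the sources used here. The libraries were made from poly(A)-enriched RNA. Conventional CD4 T cells (Tconv) of the same strain, ages and labels gave 2 libraries per group, and 2 libraries each of wild-type Treg and Tconv came from mice of over 18 months. Nothing in the labels says that replicates came from separate animals, so p-values measure only the spread between these libraries.

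The 4 libraries held 21947127 and 22300535 estimated counts (young Treg 1 and 2) and 26852448 and 22869637 counts (labelled Treg 1 and 2). Levels are given as CPM, the share of a library's counts that fell on a gene after TMM scaling. Several libraries stood apart. Young Treg 1 was closer to the young Tconv libraries (chi-square per degree of freedom 123 and 126 over 7984 genes) than to young Treg 2 (158). Aged Treg 1, labelled wild type, was closer to labelled Treg 1 (13.8) than the 2 labelled Treg libraries were to each other (45.2), and its Rpl29 level of 92.7 CPM went against its label (438 CPM in aged Treg 2). In the main fit it enters the tests only through the scaling and spread shared by all 12 libraries, and counts are given with and without it. In fits with terms for other cells, sex or a replicate block, it also helps set those terms and so the fold changes. Those fits were not run without aged Treg 1. Where its own level is printed or plotted, this doubt about its label holds. Labelled Treg 2 held Xist at 1658 CPM, the RNA of female cells, whereas Xist was at 1.41, 1.77 and 1.37 CPM in young Treg 1, young Treg 2 and labelled Treg 1. Ddx3y, a gene of the Y chromosome, was at 187 CPM in labelled Treg 1 and 0.588 CPM in labelled Treg 2. These 2 libraries therefore did not come from the same animal.

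The gene named on the label came first. Vprbp (Dcaf1; chromosome 9, 106814169 to 106880992, RefSeq on GRCm38, the build of mm10) stood at 144 and 128 CPM in the young and at 102 and 101 CPM in the labelled libraries. The groups did not overlap, but the log2 fold change of -0.42 (SE 0.14) did not pass edgeR (adjusted p 0.148) or DESeq2 (adjusted p 0.0751). When libraries were scaled to T cell genes, Vprbp stood at 0.34. That scaling moved the median of all genes to 0.73, so Vprbp was still below it. The allele is not given and reads were not counted by exon, so what this level says about the label was not tested. Of the 7 other CUL4 ligase genes measured, Ddb2, a damage sensor of this ligase, fell by 1.00 on the log2 scale (DESeq2 adjusted p 0.0352), from 155 and 109 to 71.0 and 61.2 CPM. Ddb2 was not called when scaled to T cell genes (-0.23 against 0.73 for all genes, DESeq2 adjusted p 0.626). Nor was it called with model terms for the macrophage, erythroid and B cell lists (-0.78, DESeq2 adjusted p 0.359). The scaffold gene Cul4a stood at 94.6 and 93.8 CPM in the young and 92.8 and 106 CPM in the labelled Treg.

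Young Treg held Foxp3 at 1428 and 812 CPM and labelled Treg at 625 and 535 CPM, and young Tconv held 47.7 and 78.4 CPM, so this defining marker was present in all 4 Treg libraries. Il2ra, the gene of CD25, was at 1337 and 887 against 774 and 576 CPM. Both were lower in each labelled library than in each young one, and neither passed (DESeq2 adjusted p 0.192 and 0.172). Scaled to T cell genes, Foxp3 stood at -0.14 and Il2ra at 0.06 on the log2 scale, both below the 0.73 of all genes. With terms for other cells Il2ra was at -1.23 (DESeq2 adjusted p 0.0208) and Foxp3 at 0.57 (DESeq2 adjusted p 0.516). Young Treg 2 lay between young Treg 1 and the labelled libraries for both genes, as it did in mean level for 19 of 23 lists; the NADPH oxidase, plasma cell, platelet, and CD8 and NK cell lists were the exceptions.

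The main test called no gene. With edgeR, 0 of 9495 genes (0%) passed an adjusted p of 0.05; the smallest adjusted p was 0.131, and 2359 genes had an unadjusted p under 0.05, 1005 of them higher and 1354 lower. DESeq2 on the same counts called 589 genes higher (6.87% of the 8574 with an adjusted p) and 596 lower (6.95%). The count turned on which libraries shared the estimate of the spread. In the fit of the 8 libraries of 2-month mice, edgeR called 2022 genes, 847 higher and 1175 lower. Without aged Treg 1, edgeR called 65 genes, 26 higher and 39 lower, and DESeq2 1038 and 994. In the following, rose and fell are used only for genes that DESeq2 called over all genes, with its adjusted p. Groups did not overlap for 3346 genes higher (35.2% of 9495) and 3502 lower (36.9%), and these shares are the background for the counts per list.

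Transcripts of erythroid cells, neutrophil precursors and macrophages were more abundant in the labelled Treg, and they also differed within the young pair. The B cell list was higher too, but young Treg 2 lay close to the labelled libraries. Plasma cell and platelet lists did not follow the label. Of 19 erythroid genes tested, 18 were higher in both labelled libraries and 8 rose, with a median log2 fold change of 3.90 against -0.01 over all genes. Their summed level was 91.9 and 1665 CPM in young Treg 1 and 2 and 5618 and 12782 CPM in labelled Treg 1 and 2, so that labelled Treg 2 held the most. Rhd, a blood group antigen of red cells, went from 1.32 and 1.34 to 14.1 and 36.6 CPM (log2 fold change 4.25, SE 1.04; DESeq2 adjusted p 0.000551). Ermap rose from 6.97 and 6.49 to 30.7 and 81.6 CPM, the carbonic anhydrase Car2 from 3.91 and 17.9 to 86.7 and 222 CPM, and the membrane anchor Ank1 from 0.989 and 3.20 to 22.8 and 57.1 CPM. The globin Hba-a1, whose reads cannot be told from its near copy Hba-a2, was at 5.51 and 437 CPM in the young and 1896 and 4530 CPM in the labelled libraries and did not pass (DESeq2 adjusted p 0.145). Kel, another red cell antigen, rose from 0.0471 and 0.995 to 13.6 and 36.3 CPM. Only young Treg 1 lacked any of the 19 erythroid markers: 3 were at 0 counts there.

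Neutrophil precursor genes showed the same order of libraries. All 10 tested were higher in both labelled libraries and 5 rose (median 4.91), and in young Treg 1, 6 of the 11 markers in the table were at 0 counts, which allows up to 0.141 CPM each (3 counts). The granule genes Mpo, Camp and Ngp were at 0, 0.0471 and 0.141 CPM in young Treg 1, at 0.866, 1.38 and 5.67 CPM in young Treg 2, and at 9.92 and 28.2, 20.1 and 39.2, and 63.4 and 122 CPM in the labelled libraries. The summed level of the list was 4.28 and 60.9 CPM in the young and 328 and 650 CPM in the labelled libraries.

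Macrophage genes separated the young libraries more than the groups. All 18 tested were higher in both labelled libraries, with a median of 2.60, but only Axl, a receptor for dying cells, rose (93.4 and 503 to 1432 and 1700 CPM, DESeq2 adjusted p 0.0304). The summed level was 260 and 4969 CPM in the young and 14593 and 17745 CPM in the labelled Treg. C1qa, a complement gene of splenic macrophages, was at 9.79 and 239 CPM against 694 and 756 CPM and did not pass (DESeq2 adjusted p 0.257). Within the young pair, the median macrophage gene was higher in young Treg 2 than in young Treg 1 by 4.76 on the log2 scale. B cell genes differed mainly within the young pair, by a median of 5.24 on the log2 scale. All 14 had a positive log2 fold change (median 0.99), 8 were higher in both labelled libraries and none rose. Their summed level was 274 and 7068 CPM in the young and 7945 and 8804 CPM in the labelled Treg. Cd79a, which encodes a B cell receptor signalling chain, stood at 14.8 and 680 CPM in the young and 607 and 653 CPM in the labelled Treg. Against young Treg 2 alone the median B cell gene differed by 0.06 on the log2 scale. Plasma cell genes (5 tested, median -0.02) and platelet genes (5 tested, 0.11) had no called member.

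**Figure D1:**
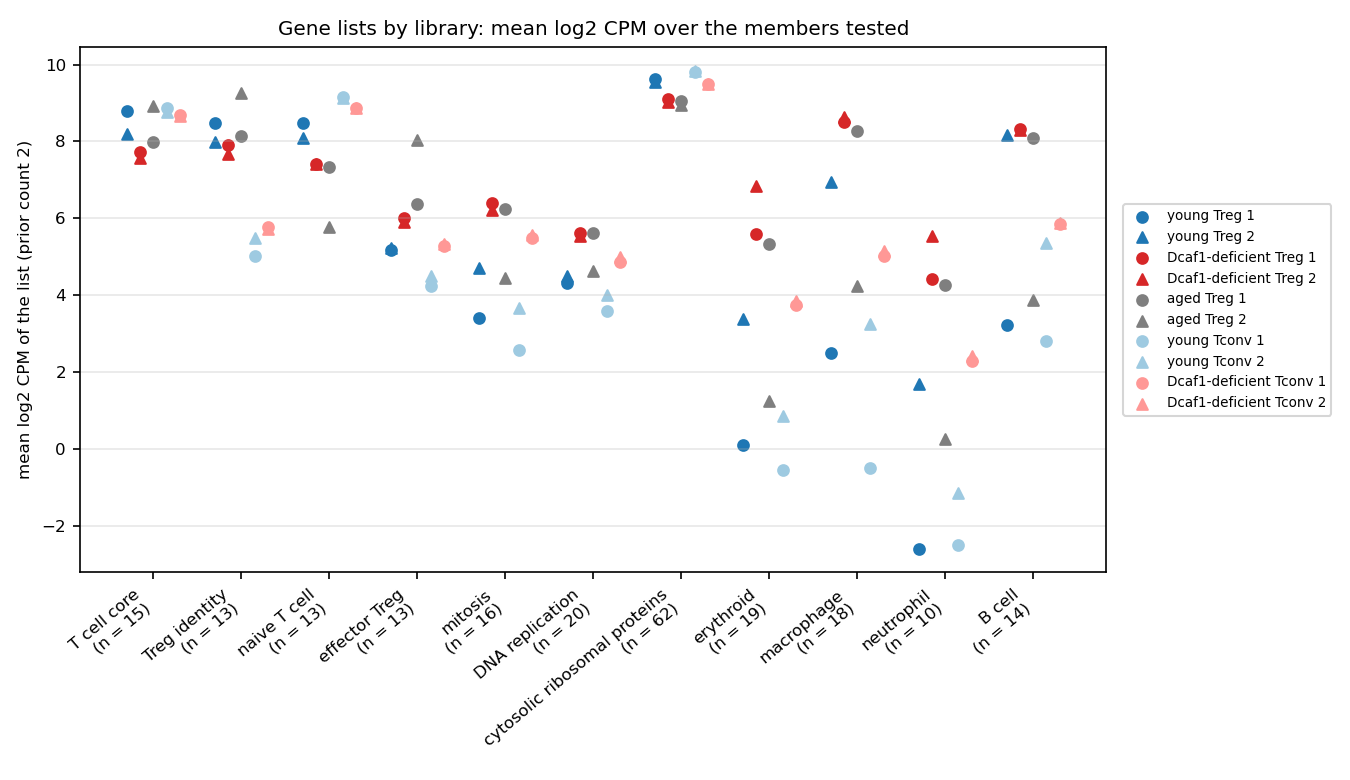
Mean log2 CPM of each list (y axis) by library: circles are replicate 1 and triangles replicate 2, with young Treg in blue, labelled Treg in red, aged Treg in grey, and young and labelled Tconv in pale blue and pale red. The erythroid mean runs from 0.09 and 3.39 (young Treg) to 5.59 and 6.85 (labelled Treg), and young Treg 2 lies between young Treg 1 and the labelled libraries in each list.

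With more RNA of other cells in a library, the share of T cell transcripts is smaller. In bulk samples, fewer T cells, less RNA per T cell and lower levels of single genes in each T cell cannot be told apart. Which of these the values below reflect was not tested. The 15 T cell core genes tested, such as those of the T cell receptor complex and its kinases, had a median log2 fold change of -0.94; 14 were lower in both labelled libraries and 6 fell. Cd28, the costimulatory receptor, fell from 444 and 261 to 147 and 146 CPM (-1.27, DESeq2 adjusted p 0.000599). Bcl11b, a factor that keeps T cell identity, fell from 468 and 309 to 152 and 158 CPM. The summed core level was 8867 and 6055 CPM in the young and 4635 and 4043 CPM in the labelled Treg. In Tconv the core median was -0.08, with no member called. A second scaling was set beside the first, with each library scaled to its summed T cell core counts; it moved the log2 fold changes of all genes by a median of 0.74, to 0.73, and changes under it are read against that shift.

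T-cell-expressed genes were defined on other libraries: 5862 genes (61.7% of those tested) had at least 10 CPM in each of the 4 wild-type Tconv libraries and were in no list of another cell type. Of these, 341 rose (5.82%) and 534 fell (9.11%). The class median of -0.11 turned to 0.63 when scaled to the T cell core, against 0.73 for all genes. Among all 9495 genes, 35.2% were higher and 36.9% lower without overlap; in the class the shares were 27.1% and 47.7%. Scaled to the T cell core, 268 genes of the class rose and 12 fell, and 197 of the 341 and 12 of the 534 were called under both scalings. Genes were tested against 0, and this scaling placed 5561 of the 5862 class genes above 0. The surplus of increases follows from that shift, so these counts do not show that the other decreases were undone. With terms for the macrophage, erythroid and B cell lists in the model, 281 rose and 340 fell, of which 107 and 163 were among the first calls. The order of the young libraries ran with the label difference, as 304 of the 341 were also higher in young Treg 2 than in young Treg 1, and 516 of the 534 were lower. What part the other cells and the spread of the young pair had in these calls was not tested beyond these fits. Without young Treg 1, 39 calls were left in the class; without young Treg 2 there were 1305; without labelled Treg 1 or 2, 138 and 78; without aged Treg 1, 1496.

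The 12 T-cell-expressed genes that fell under both scalings included the most strongly lowered of all. Young Treg held Rpl29, a protein of the large ribosomal subunit, at 744 and 717 CPM, and labelled Treg held it at 34.0 and 31.5 CPM. Its 2 labelled libraries were nearly equal, and no other gene of the class differed as much by edgeR, with a log2 fold change of -4.48 (SE 0.63; edgeR adjusted p 0.131, or 6.5e-05 without aged Treg 1; DESeq2 adjusted p 3.26e-13). Its value scaled to the T cell core was -3.74, and with terms for other cells it was -3.57 (DESeq2 adjusted p 0.00392). In Tconv it fell as far, from 836 and 845 to 43.0 and 37.9 CPM.

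Rpl29 lies on chromosome 9 (106428889 to 106431568), 0.38 Mb from Dcaf1. Abhd14b, which encodes a hydrolase-fold protein, lies beside it (106447737 to 106452923) and fell from 18.4 and 15.02 to 2.88 and 2.35 CPM (log2 fold change -2.67, DESeq2 adjusted p 0.000219). Als2cl, on the same chromosome and 4 Mb from Dcaf1, fell from 301 and 151 to 47.7 and 44.8 CPM. Within 1 Mb of Dcaf1, 5 of 40 other genes tested fell (14.3% of those with an adjusted p, against 6.95% of all). In the same window 3 rose (8.57%, against 6.87% of all). Within 10 Mb the shares were alike, as 15 of 169 fell (9.93%) and 14 rose (9.27%). One of those that rose, the collagen gene Col6a4 (0.72 Mb away), was nearly absent from young Treg at 0.0471 and 0.389 CPM and stood at 29.2 and 28.8 CPM in labelled Treg, a log2 fold change of 6.99 (SE 2.23, DESeq2 adjusted p 0.00406). It was also at 37.7 and 37.2 CPM in labelled Tconv, against 0.375 and 0.44 CPM in young Tconv. With terms for other cells, the DESeq2 value of Col6a4 in Treg was 0.19 (adjusted p 0.983). Scaled to the T cell core, it was 7.60 (DESeq2 adjusted p 0.0273).

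Of the 12, 5 lie on chromosome 7. From the first to the last of them, a stretch of 5.67 Mb chosen from these genes, 8 of 42 genes tested fell and 3 rose. The lower genes were 20% of those with an adjusted p (6.95% over all genes) and the higher ones 7.5%. The 8 include the 5 that set the stretch, so the choice raised this share and it tests nothing about the region. Trim12a (104299893 to 104315558), a tripartite-motif gene of a family of antiviral proteins, stood at 205 and 183 CPM in the young and at 36.2 and 7.64 CPM in the labelled libraries. Its neighbour Trim5 (104263386 to 104288254) was at 49.9 and 60.2 against 10.2 and 2.10 CPM. Mrpl48 (100545779 to 100608301), a mitochondrial ribosomal protein gene, was at 32.4 and 39.2 against 10.2 and 2.31 CPM. For these 3 genes labelled Treg 2 lay well below labelled Treg 1, and the labelled Tconv libraries lay between them (16.7 and 14.5 CPM for Trim12a, 3.66 and 3.09 CPM for Trim5, 3.12 and 3.62 CPM for Mrpl48). Art2b (101575729 to 101585591), a surface ADP-ribosyltransferase of T cells, fell from 110 and 59.7 to 7.95 and 7.93 CPM. Gvin1 (106156535 to 106215340), an interferon-inducible very large GTPase, fell from 2609 and 1396 to 314 and 130 CPM. The 5 log2 fold changes ran from -2.52 to -3.42, and DESeq2 adjusted p from 0.000224 to 0.00324. Trim34b, beside Trim12a, rose from 1.65 and 2.21 to 15.4 and 20.15 CPM (3.20, DESeq2 adjusted p 0.0032), and Inppl1, a lipid phosphatase gene of the same stretch, from 34.2 and 45.6 to 117 and 131 CPM (1.63, DESeq2 adjusted p 5.93e-07); both were named after their values were seen. Trim and Gvin genes have near-identical copies, so how the reads were divided among these is uncertain.

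Of the remaining 4, Nt5e is also on chromosome 9 (88327609 to 88372089), 18.44 Mb from Dcaf1, and the others lie elsewhere. Ctse (chromosome 1, 131638314 to 131675507), the protease cathepsin E, fell from 480 and 456 to 64.1 and 102 CPM (-2.49, SE 0.33, DESeq2 adjusted p 1.87e-10). Prg4, a secreted proteoglycan, fell from 57.4 and 36.6 to 5.91 and 11.8 CPM. Nt5e, which encodes CD73, the enzyme that makes adenosine on Treg, fell from 445 and 245 to 77.2 and 63.1 CPM (-2.30, SE 0.73, DESeq2 adjusted p 0.0110). It was the only 1 of 13 Treg identity genes called, and with terms for other cells the DESeq2 value of Nt5e was 0.19. Lrig1, a membrane brake on growth factor receptors, fell from 465 and 269 to 100 and 96.3 CPM, and was named after its values were seen. With terms for other cells, 3 of the 11 that the naming rule covers kept a DESeq2 adjusted p under 0.05 (Rpl29, Prg4 and Als2cl). Among the others, Abhd14b stood at -1.96 and Ctse at -1.86 with those terms, while Trim5 stood at -0.46 and Mrpl48 at -0.51. Med23, a Mediator subunit, fell from 20.01 and 24.5 to 1.48 and 6.17 CPM but was not called when scaled to the T cell core (DESeq2 adjusted p 0.0764) or with terms for other cells (-3.46, DESeq2 adjusted p 0.0675).

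**Figure D2:**
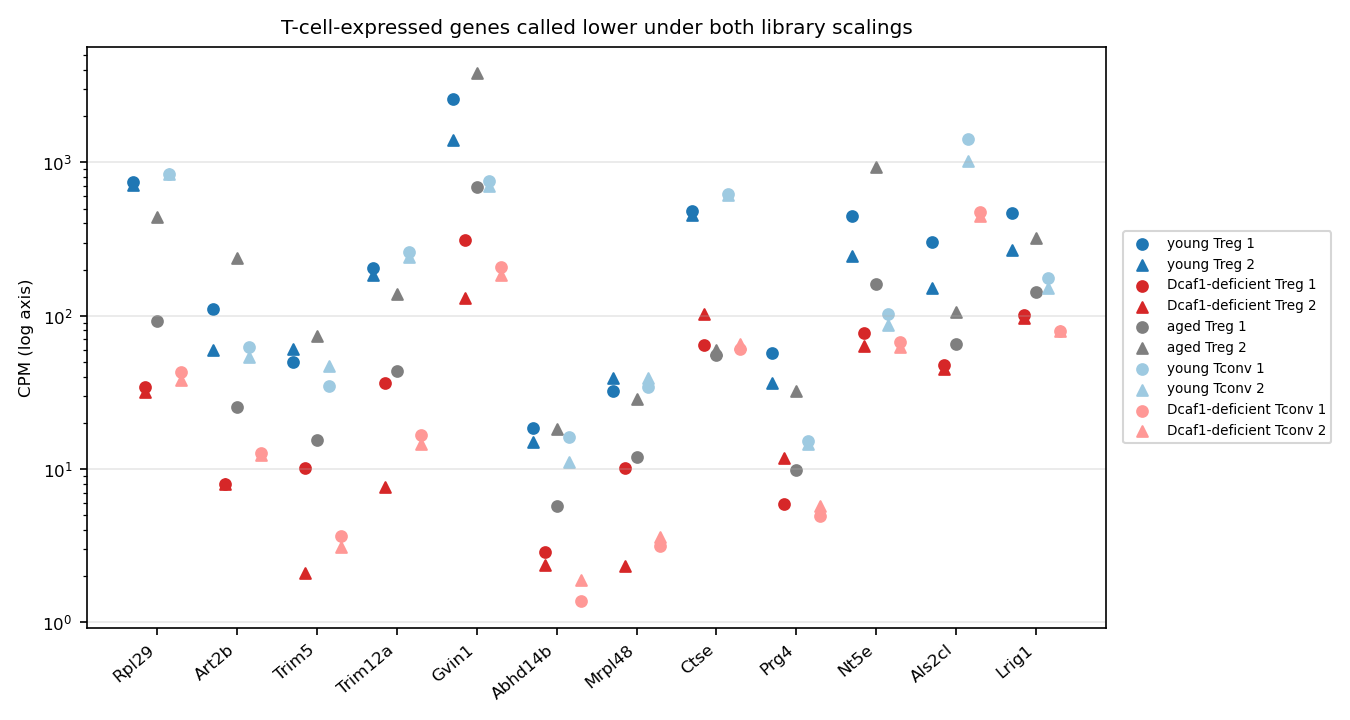
CPM on a log axis of the 12 T-cell-expressed genes called lower under both scalings, by library (circles replicate 1, triangles replicate 2). Both labelled Treg libraries (red) lie below both young Treg libraries (blue) for each gene, as do the labelled Tconv libraries (pale red) below young Tconv, and aged Treg 1 (grey circle) lies below aged Treg 2.

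Without aged Treg 1, edgeR called 36 T-cell-expressed genes lower and 14 higher; 4 of the lower ones are given here, chosen after their values were seen. Trim12c was at 187 and 191 against 106 and 103 CPM (edgeR adjusted p 0.0126 without aged Treg 1), the DNA repair gene Parp3 at 174 and 118 against 49.8 and 53.5 CPM (0.0443), Trp53, the gene of p53, at 228 and 188 against 120 and 121 CPM (0.0483), and the growth regulator Myc at 248 and 201 against 135 and 135 CPM (0.0483). Scaled to the T cell core, Trp53 stood at -0.02 and Myc at 0.03, below the 0.73 of all genes.

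Genes of dividing cells were higher in the labelled libraries. All 16 mitosis genes tested were higher in both labelled Treg libraries and 13 rose, with a median log2 fold change of 2.12 (2.73 scaled to the T cell core, against 0.73 for all genes). Their mean log2 CPM was 3.40 and 4.70 in the young and 6.39 and 6.23 in the labelled Treg. Top2a, the topoisomerase that untangles chromosomes, was at 63.5 and 157 CPM against 504 and 406 CPM (2.05, SE 0.70, DESeq2 adjusted p 0.0190). Birc5 (survivin) went from 12.5 and 28.3 to 125 and 109 CPM, the ubiquitin-conjugating enzyme Ube2c from 7.35 and 16.1 to 57.4 and 59.9 CPM, and the spindle midzone gene Prc1 from 15.2 and 32.8 to 94.5 and 88.4 CPM. Only 3 of the 16 are in the T-cell-expressed class. Erythroid precursors also divide, and the part of the erythroid transcripts in this list was tested only as a term in the model. By edgeR the Top2a value was 1.03 with a term for the erythroid list alone (adjusted p 0.653) and 3.06 with terms for the macrophage, erythroid and B cell lists (adjusted p 0.147); with those 3 terms DESeq2 gave 3.09 (adjusted p 0.00441).

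The DNA replication genes behaved alike: 18 of 20 were higher in both labelled libraries and 8 rose (median 1.07). Rrm2, a subunit of ribonucleotide reductase, was at 24.4 and 48.9 CPM against 209 and 181 CPM (2.41, SE 0.75, DESeq2 adjusted p 0.00925). Tk1, thymidine kinase, rose from 24.4 and 39.7 to 82.6 and 77.7 CPM, Ccne2, cyclin E2, from 3.81 and 5.45 to 19.9 and 19.8 CPM, and Gins2, a part of the replicative helicase, from 4.66 and 7.49 to 19.9 and 16.0 CPM. With terms for other cells, Rrm2 and Tk1 stayed called (DESeq2 adjusted p 0.0236 and 0.0260). Ccne2 (0.119), Gins2 (0.140) and the mitosis gene Ube2c (0.0557) did not. In Tconv, 5 of the mitosis and 2 of the replication genes rose as well.

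The 250 bases before the start of 2 of these mitosis genes and of an erythroid gene are shown because the members of each list moved together. They come from RefSeq (GRCm38.p6): Top2a at chr11:99024190-99024439 and Cdk1 at chr10:69352913-69353162, both on the minus strand, and Rhd at chr4:134864286-134864535 on the plus strand, each written 5′ to 3′. Capitals mark CCAAT and TTTGAA on either strand in Top2a and Cdk1, and AGATAA on either strand in Rhd.
Top2a: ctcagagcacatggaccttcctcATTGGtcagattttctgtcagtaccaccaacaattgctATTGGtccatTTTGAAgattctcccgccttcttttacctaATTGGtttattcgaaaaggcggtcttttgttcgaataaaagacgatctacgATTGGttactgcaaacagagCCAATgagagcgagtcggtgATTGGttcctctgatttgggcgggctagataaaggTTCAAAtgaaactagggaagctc
Cdk1: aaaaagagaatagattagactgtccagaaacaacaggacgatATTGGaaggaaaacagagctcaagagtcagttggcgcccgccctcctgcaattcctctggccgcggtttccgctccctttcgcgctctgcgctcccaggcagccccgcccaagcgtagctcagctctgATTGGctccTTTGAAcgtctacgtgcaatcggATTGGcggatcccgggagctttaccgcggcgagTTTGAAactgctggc
Rhd: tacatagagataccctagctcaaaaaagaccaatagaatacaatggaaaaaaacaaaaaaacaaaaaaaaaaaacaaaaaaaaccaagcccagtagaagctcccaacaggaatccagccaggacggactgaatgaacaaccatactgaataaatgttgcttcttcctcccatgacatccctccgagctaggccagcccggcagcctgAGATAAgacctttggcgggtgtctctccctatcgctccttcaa
Of 15 windows of the 14 mitosis genes matched, 12 held CCAAT (34.8% of the 9975 windows of all genes tested) and 5 held TTTGAA (11.1%). CCAAT was also in 10 of 20 windows of the DNA replication genes and 8 of 15 of the erythroid genes. Of 15 windows of 14 erythroid genes, 6 held AGATAA (6.45%), and 1 of the mitosis windows did. CCAAT and TTTGAA did not overlap in the windows shown, and both strands were searched. These are matches of letters only.

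**Figure D3:**
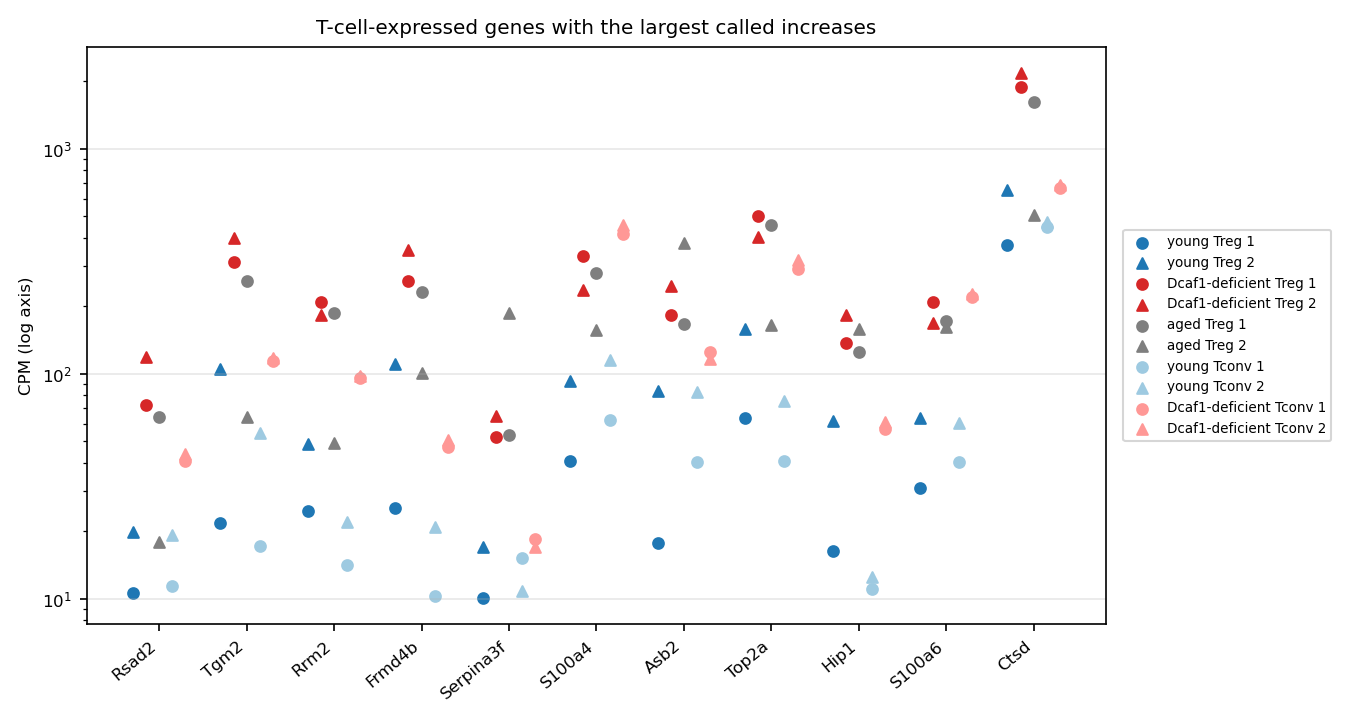
CPM on a log axis, by library, of 11 of the 12 T-cell-expressed genes with the largest called increases (circles replicate 1, triangles replicate 2). Both labelled Treg libraries (red) lie above both young Treg libraries (blue) for each gene, and young Treg 2 (blue triangle) lies above young Treg 1.

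The other large increases in the T-cell-expressed class were of mixed function. Rsad2 (viperin), an interferon-induced antiviral enzyme, rose most, from 10.5 and 19.8 to 72.8 and 119 CPM (2.66, SE 0.67, DESeq2 adjusted p 0.00129). S100a4 and S100a6, calcium-binding proteins of memory and effector T cells, rose from 40.7 and 92.9 to 333 and 236 CPM and from 31.0 and 63.4 to 208 and 168 CPM. Tgm2, a transglutaminase abundant in macrophages, rose from 21.7 and 105 to 315 and 401 CPM, and was the only 1 of the 12 not called when scaled to the T cell core (adjusted p 0.0775). Ctsd, the lysosomal protease cathepsin D, rose from 375 and 658 to 1882 and 2163 CPM (1.97, SE 0.49, DESeq2 adjusted p 0.00121) and was also called by edgeR without aged Treg 1 (adjusted p 0.0439).

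Frmd4b rose from 25.2 and 110 to 258 and 354 CPM, Asb2, a substrate adaptor of a cullin ligase, from 17.7 and 84.1 to 182 and 244 CPM, Hip1, an endocytic protein, from 16.3 and 61.4 to 137 and 182 CPM, and the protease inhibitor gene Serpina3f from 10.1 and 16.9 to 52.2 and 64.5 CPM. For Tgm2, Frmd4b, Asb2 and Hip1 the young libraries differed by 1.91 to 2.26 on the log2 scale, against group differences of 2.04 to 2.50. With terms for other cells, 10 of the 12 kept a DESeq2 adjusted p under 0.05; the exceptions were Rsad2 (0.153) and Ctsd (0.0639).

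Genes of effector Treg were mostly higher in the labelled libraries. Of 13 tested, 10 were higher in both labelled libraries and 5 rose, with a median of 0.95 (1.69 scaled to the T cell core); the median difference between the young libraries was -0.13. Klrg1, a receptor of terminally differentiated cells, rose from 31.8 and 38.3 to 136 and 133 CPM (1.94, SE 0.62, DESeq2 adjusted p 0.0137). Il1rl1, the interleukin-33 receptor ST2, rose from 38.8 and 32.3 to 113 and 92.7 CPM (1.53, SE 0.38, DESeq2 adjusted p 0.00231) and was called by edgeR without aged Treg 1 (adjusted p 0.0439). Havcr2 (Tim-3) rose from 6.92 and 19.6 to 49.1 and 43.0 CPM. The transcription factor gene Rora rose from 13.6 and 11.9 to 28.7 and 20.6 CPM. With terms for other cells, Il1rl1 was not called (1.77, DESeq2 adjusted p 0.0594). Klrg1, Havcr2 and Rora stayed called (DESeq2 adjusted p 1.9e-05, 0.00122 and 5.4e-05). Those terms are set in part by aged Treg 1, whose label is in doubt. The effector Treg mean log2 CPM was 6.37 in aged Treg 1 and 8.04 in aged Treg 2.

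Naive T cell genes were lower in both labelled libraries in 12 of 13, and 3 fell (median -0.83, or -0.06 scaled to the T cell core against 0.73 for all genes). Bcl2, a survival gene, fell from 555 and 336 to 166 and 169 CPM, and Tcf7, a factor of naive and memory cells, from 746 and 517 to 212 and 247 CPM. The naive median was -2.98 by edgeR with terms for other cells. By DESeq2 with those terms, Tcf7 (-3.59, adjusted p 2.18e-06), Bcl2 (-2.27, adjusted p 0.00903) and Foxo1 (-1.76, adjusted p 0.00259) stayed called. None of these 3 was called when scaled to the T cell core. Aged Treg 1, whose label is in doubt, helps set those terms. Mean log2 CPM in aged Treg 1 and 2 was 7.34 and 5.78 (naive) and 8.28 and 4.24 (macrophage). In young Treg 1 and 2 the 2 lists ran oppositely, at 8.48 and 8.10 (naive) and 2.48 and 6.94 (macrophage). How far the values with terms rest on the aged pair was not tested. Bcl2 stood at 269 and 281 CPM in young Tconv and 299 and 298 CPM in labelled Tconv, and its edgeR test of the label difference in Treg minus that in Tconv gave -1.53 (unadjusted p 0.00677, which did not pass over all genes). Treg identity genes had 7 of 13 lower and 3 higher without overlap. Their median of -0.72 turned to 0.06 when scaled to the T cell core, against 0.73 for all genes.

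Of 4 CDK inhibitor genes tested, 3 were higher and 1 was lower in both labelled libraries, and 2 rose. Their summed level did not follow the label, at 303 and 215 CPM in the young and 243 and 235 CPM in the labelled Treg. Cdkn1a (chromosome 17, 29090979 to 29100722) stood at 1.27 and 5.71 CPM in the young and 62.3 and 46.0 CPM in the labelled libraries. Aged Treg 1, whose label is in doubt, held Cdkn1a at 51.9 CPM and aged Treg 2 at 21.4 CPM. The log2 fold change was 3.95 (SE 0.89; DESeq2 adjusted p 9.09e-05; edgeR adjusted p 0.131, or 0.0582 without aged Treg 1). The gene was below the minimum of the T-cell-expressed class. With terms for other cells its value was 5.77 (DESeq2 adjusted p 9.96e-10). Cdkn2a, which encodes p16 and Arf, was at 0 and 0.606 CPM against 10.2 and 5.92 CPM (DESeq2 adjusted p 0.00941). Cdkn1a was counted with the CDK inhibitors and not with the p53 targets. Ddb2, which fell, was counted with the CUL4 ligase genes and is not in the p53 target list either. Of the 14 genes of the p53 target list, Phlda3, an inhibitor of Akt, was the only one called and rose from 0.848 and 1.43 to 15.1 and 10.5 CPM (3.48, SE 0.52, DESeq2 adjusted p 4.35e-08); the list's median was 0.11.

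Redox genes were mostly higher: 24 of 32 glutathione and antioxidant genes in both labelled libraries, of which 12 rose (median 0.71). Prdx2, a peroxiredoxin abundant in red cells, rose from 143 and 143 to 212 and 241 CPM (0.66, DESeq2 adjusted p 0.00011), Gsr, glutathione reductase, from 45.8 and 56.9 to 91.0 and 106 CPM, and Srxn1, sulfiredoxin, from 1.88 and 5.24 to 18.5 and 16.5 CPM. Gstp1, a glutathione S-transferase, was at 151 and 143 CPM against 151 and 147 CPM, and the log2 difference of 0.02 (SE 0.11) did not pass. The erythroid and macrophage lists moved with this list. The list's median was 0.36 by edgeR with terms for other cells, and by DESeq2 Srxn1 stayed called (4.89, adjusted p 0.000999) while Prdx2 (0.72, adjusted p 0.211) and Gsr (1.42, adjusted p 0.0577) did not. Noxa1, an NADPH oxidase activator, fell from 9.42 and 7.70 to 0.738 and 1.60 CPM. It was not called when scaled to the T cell core (-2.08, DESeq2 adjusted p 0.0943) or with terms for other cells (-2.87, DESeq2 adjusted p 0.282).

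Interferon response genes were higher in both labelled libraries in 14 of 22 and 4 rose (median 0.59). Oas1a, an RNA sensor, rose from 40.4 and 41.3 to 90.5 and 102 CPM (1.24, SE 0.27, DESeq2 adjusted p 0.000739), Irf7 from 106 and 117 to 149 and 205 CPM, and Ifi44 from 3.86 and 5.06 to 10.3 and 22.2 CPM. With terms for other cells, DESeq2 kept Oas1a (1.88, adjusted p 0.0156) but not Irf7 (0.34, adjusted p 0.694) or Ifi44 (2.23, adjusted p 0.288). None of 13 glycolysis genes rose or fell. Gapdh was at 1314 and 1320 CPM against 2129 and 1765 CPM. Cytosolic ribosomal protein genes fell in 42 of 62, with a median of -0.60 that turned to 0.15 when scaled to the T cell core, where all genes stood at 0.73. Rps15a fell from 1446 and 1295 to 751 and 697 CPM, Rpl13 from 1704 and 1674 to 1072 and 1035 CPM, and Rpl22 from 99.6 and 94.0 to 61.7 and 64.8 CPM; scaled to the T cell core, Rps15a stood at -0.17, Rpl13 turned to 0.06 and Rpl22 to 0.13. The ribosomal median was -1.08 by edgeR with terms for other cells, and by DESeq2 Rps15a (-1.26, adjusted p 0.00236), Rpl13 (-0.98, adjusted p 0.0129) and Rpl22 (-0.84, adjusted p 0.0426) stayed called. Processed copies of ribosomal genes make the counts of single members uncertain.

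**Figure D4:**
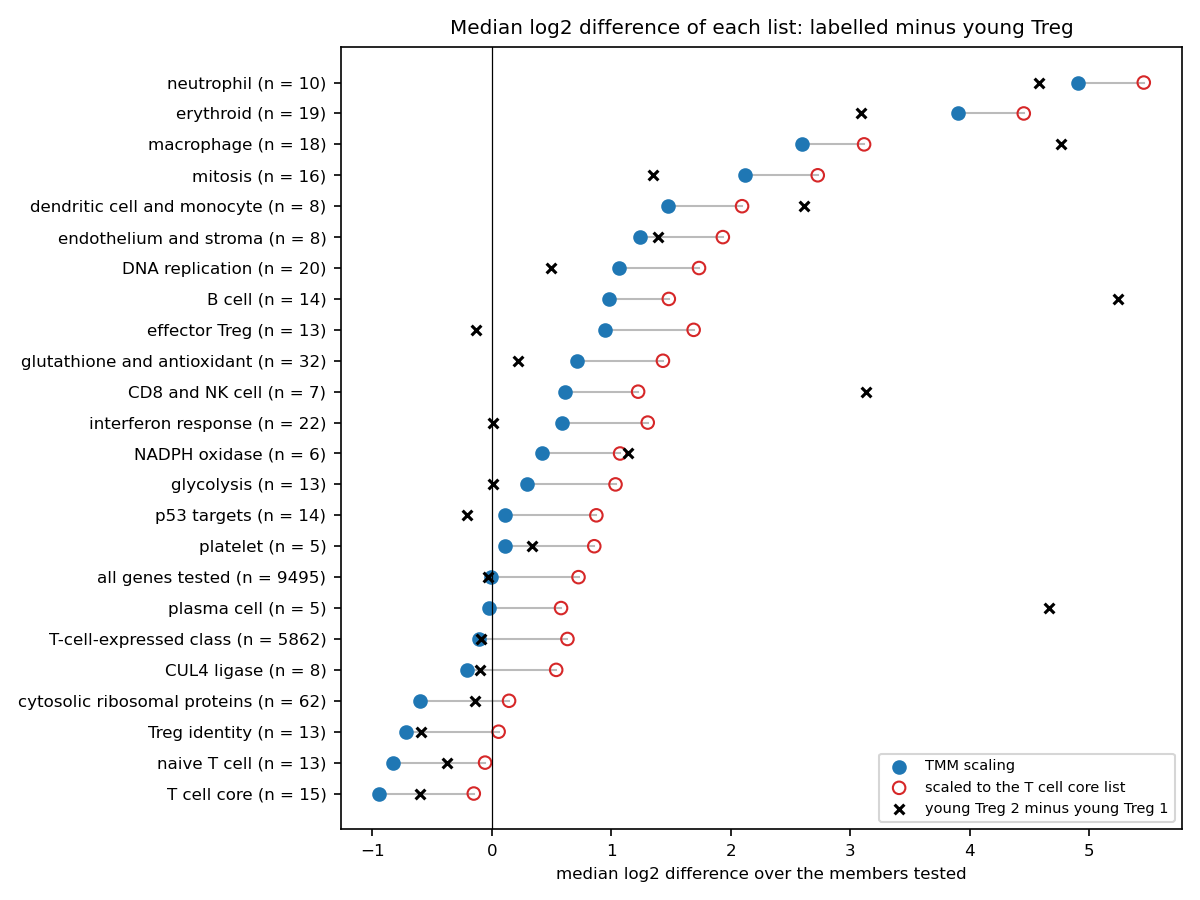
Median log2 difference of each list (x axis): filled circles are labelled minus young Treg under TMM scaling, open circles the same scaled to the T cell core, and crosses young Treg 2 minus young Treg 1. The ribosomal median moves from -0.60 to 0.15 and that of all genes from -0.01 to 0.73. The effector Treg list has a cross at -0.13 beside a filled circle at 0.95.

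Outside the T-cell-expressed class, Apol11b, an apolipoprotein L gene, rose from 0.188 and 1.08 to 30.03 and 62.3 CPM (6.16, SE 1.39, DESeq2 adjusted p 1.18e-05). Of the 6 largest decreases outside the class, Dnah7a, an axonemal dynein, fell from 72.2 and 49.8 to 12.4 and 11.04 CPM (-2.38, SE 0.41, DESeq2 adjusted p 2.7e-07), and the growth-suppressing zinc finger gene Plagl1 from 38.3 and 18.3 to 4.47 and 5.54 CPM. Khdc1a fell from 30.04 and 14.6 to 2.64 and 3.53 CPM, the helicase gene Ddx43 from 32.4 and 15.02 to 5.204 and 4.41 CPM, and Ptgdr, a prostaglandin D2 receptor, from 15.4 and 7.40 to 1.83 and 2.27 CPM. Sh3gl3 fell from 12.3 and 10.7 to 1.27 and 2.31 CPM and was called by edgeR without aged Treg 1 (adjusted p 0.0439). Scaled to the T cell core, Khdc1a, Plagl1, Ptgdr and Ddx43 were not called (DESeq2 adjusted p 0.141, 0.127, 0.0930 and 0.0899). Dnah7a and Sh3gl3 were (0.0448 and 0.0497). With terms for other cells, Dnah7a, Khdc1a and Plagl1 stayed called (DESeq2 adjusted p 0.00348, 0.00373 and 0.000833). Sh3gl3, Ptgdr and Ddx43 did not (0.356, 0.142 and 0.0843).

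The same labels were set side by side in Tconv, where DESeq2 called 152 genes higher (1.7%) and 75 lower (0.839%) of 8942 and edgeR called 0 (954 had an unadjusted p under 0.05). In the T-cell-expressed class, 39 genes rose in both cell types, of 341 in Treg and 68 in Tconv, and 34 fell in both, of 534 and 60. Hip1, S100a4, S100a6, Top2a and Rrm2 rose in both, and Rpl29, Trim5, Trim12a, Abhd14b, Mrpl48, Ctse and Als2cl fell in both. Ctsd was at 446 and 471 CPM in young Tconv and at 665 and 687 CPM in labelled Tconv, with a log2 fold change of 0.56 there. By edgeR the label difference in Treg minus that in Tconv passed for 0 of 9495 genes (0%; 260 had an unadjusted p under 0.05), and by DESeq2 for 1, so nothing named above is shown to differ between the cell types. Both labelled Tconv libraries held Xist (1321 and 1339 CPM) and both young Tconv libraries lacked it (2.39 and 2.64 CPM), so in Tconv sex and label cannot be told apart. With a sex term, 227 of the 341 higher and 333 of the 534 lower Treg calls were kept.

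**Figure D5:**
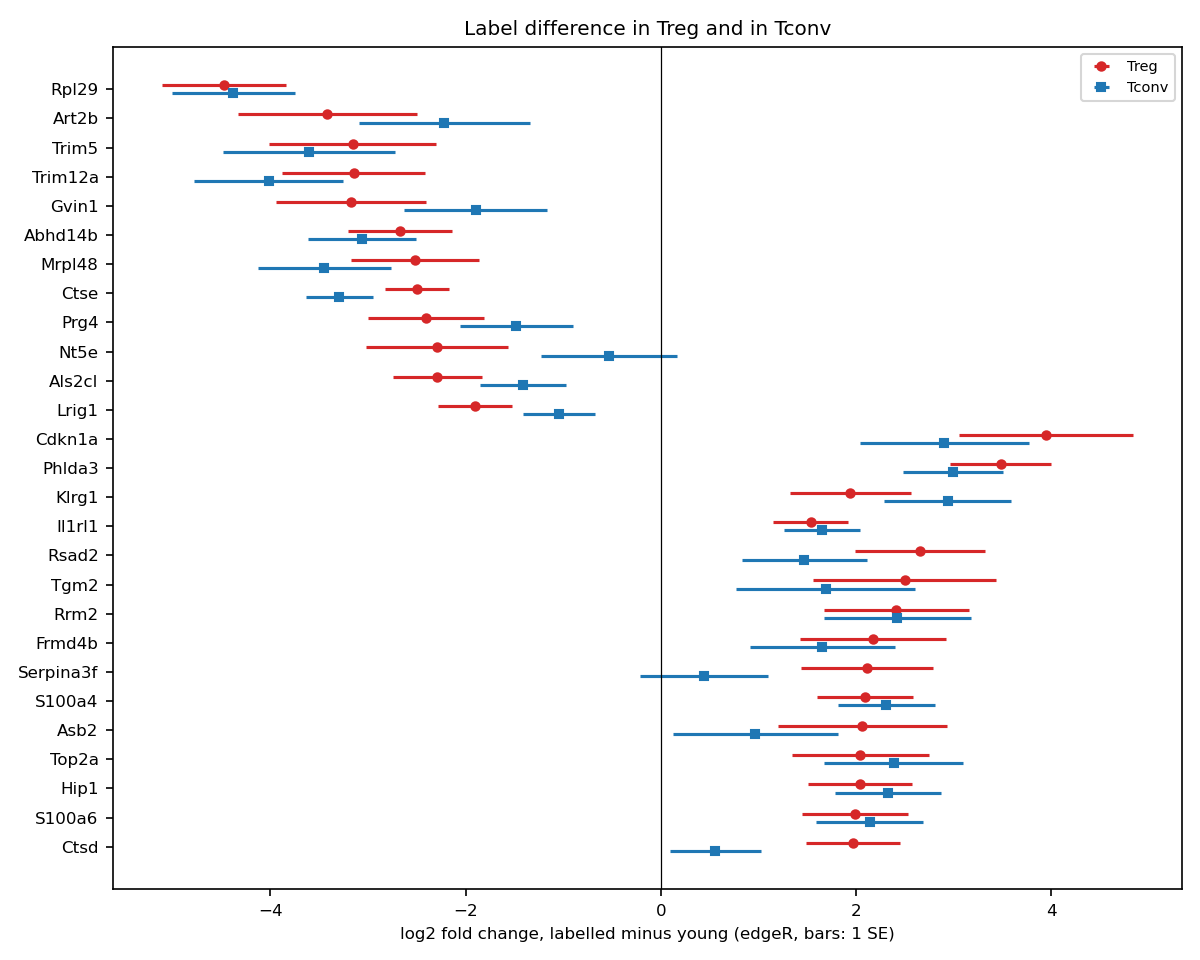
Log2 fold change (x axis, edgeR, bars of 1 SE) between labelled and young libraries in Treg (circles) and Tconv (squares). Rpl29 lies at -4.48 and -4.38, and each gene lies on the same side of 0 in both cell types, with Ctsd at 1.97 in Treg and 0.56 in Tconv.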

How the data were processed

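Gene counts were read from the authors' deposited table of estimated counts, made with Salmon 0.9.1 on mm10 per the submitters' processing notes and gene-level by the deposited table's name; it has 13404 rows, and 23.5% of its values are whole. The authors also deposited log2 values, named with DESeq2 in the submitters' processing notes, whose exact transform is not given in the sources used here. Estimated counts were rounded and tested with edgeR 4.0.16 (quasi-likelihood, TMM, filterByExpr, 9495 genes) in R 4.3.3, in 1 fit of 12 libraries with 6 group means and 6 residual degrees of freedom, with Benjamini-Hochberg adjustment at 0.05. DESeq2 1.42.0 (Wald) was the alternative tool, as edgeR called 0 genes, and limma 3.58.1 was run on the log2 values. Log2 CPM used a prior count of 2. Depth was 18358477 to 26852448 counts per library, so 3 counts are 0.106 to 0.167 CPM, for counting error only.

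The comparison, lists and T-cell-expressed class were chosen with earlier results of these data known. The rule named Vprbp, Cdkn1a, Cdkn2a, Rpl29, Foxp3, Il2ra and Gstp1, the 12 largest called increases and decreases in the class and 6 outside it (at least 10 CPM, groups not overlapping), and called members of each list, not all of which are printed. Alternatives were other scaling, filters, fits, terms for other cells, a replicate block and leaving out each library. Each added term or block leaves fewer residual degrees of freedom than the 6 of the main fit. Leaving out aged Treg 1 and a sex term were added after the data were seen. Gene positions and promoter windows came from RefSeq (GRCm38.p6), which matched 9472 genes, 7716 of them with a window. Fits were tested on simulated data. Genes that the table does not hold were not analysed here. Some genes that the rule covers are not reported here.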

Additional observations from a re-analysis of the deposited data

Results flagged for a closer look

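Clasp1, which encodes a microtubule-stabilising protein of the spindle, was the 1 gene whose label difference DESeq2 called unequal in Treg and Tconv. Young Treg held Clasp1 at 18.9 and 22.8 CPM and labelled Treg at 35.9 and 41.5 CPM, but it was at 29.7 and 35.3 CPM in young Tconv and 21.5 and 20.8 CPM in labelled Tconv, so the groups moved in opposite directions without overlap. The label difference in Treg minus that in Tconv was 1.553 on the log2 scale by DESeq2 (adjusted p 0.00253). By edgeR it was 1.51, with an unadjusted p of 0.00057 that did not pass over all genes. Aged Treg 1, whose label is in doubt, held Clasp1 at 41.2 CPM and aged Treg 2 at 44.8 CPM.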

How the results depend on the processing

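The count of 0 edgeR calls stayed at 0 with RLE size factors, T cell core scaling, no filter, the 6 Treg libraries alone, terms for 3 other cell lists, limma-trend on the log2 values and the replicate block. It was 1 in the fit of the 4 libraries (Rpl29), 2022 in the fit of the 8 libraries of 2-month mice (847 higher, 1175 lower), 4 with an erythroid term, 2 with a sex term, 65 without aged Treg 1 and 1185 with DESeq2, of which 506 had an absolute log2 fold change of at least 1. Leaving out each of the 4 libraries gave 0 to 15 edgeR calls, with 15 without young Treg 2. In the T-cell-expressed class, 875 DESeq2 calls became 280 with T cell core scaling, 1496 without aged Treg 1, and 39 to 1305 when each library was left out, with 39 without young Treg 1. The labels give the groups the same replicate numbers, but nothing ties equal numbers to a shared animal. Labelled Treg 1 held Ddx3y at 187 and Xist at 1.37 CPM, and labelled Tconv 1 held them at 0.146 and 1321 CPM. That equal-numbered pair therefore did not share an animal. Deviations of same-numbered libraries correlated at 0.1833 across 9495 genes, and with the replicate block the class had 884 calls and edgeR 0. The Treg minus Tconv count was 0 with edgeR and 1 with DESeq2. Single genes changed sign, and none of these reversed values passed edgeR; with the 3 terms DESeq2 called Cd79a lower (-1.55, adjusted p 0.0139). With T cell core scaling these were Vprbp (0.34), Il2ra (0.0578), Rpl13 (0.0564), Rpl22 (0.132) and Myc (0.0258). All 5 stayed below the median of all genes, which that scaling moved to 0.73. With terms for 3 other cell lists they were Foxp3 (0.54), Nt5e (0.16), Hba-a1 (-0.73) and Cd79a (-1.60). With the erythroid term they were Foxp3 (0.36), Hba-a1 (-1.18), C1qa (-0.42) and Cd79a (-3.37). Gstp1 turned to -0.038 with a sex term; with each library left out it ran from -0.0179 (without young Treg 2) to 0.0629 (without young Treg 1), and Cd79a from -0.11 (without young Treg 1) to 5.41 (without young Treg 2). The cause of these changes was not tested. With 2 libraries a group, no check for outlying samples within groups was possible.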
